A study of Mus musculus with 6 samples.

Results

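Matrix metalloproteinases (MMPs) and their tissue inhibitors (TIMPs) were followed through 24 probe sets of 10 genes, out of 45033 probe sets tested. The genes were Mmp2, Mmp3, Mmp9, Mmp11, Mmp14, Mmp19 and Timp1 to Timp4, and every probe set that the platform annotation assigns to 1 of them alone was kept. They belong to 18192 genes that a probe set names alone, and none of the 10 was also found on a probe set naming several genes. RNA came from C2C12, a mouse myoblast line that fuses into myotubes when serum is reduced, and each sample was read on 1 Affymetrix array. The tested cells had been transfected with a short hairpin RNA (shRNA) against PRDM2, a histone methyltransferase, and the control cells with an shRNA against GFP. Both groups hold 3 arrays called biological replicates in the labels, and all cells had been kept for 28 hours in DMEM with 2% horse serum. All samples derive from 1 cell line, and the labels do not say whether the replicates were separate transfections, so the tests measure the spread between these arrays.

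MMPs are secreted or membrane-bound enzymes that need zinc and cut collagens, laminins, fibronectin and proteoglycans. They are made as inactive precursors, and TIMPs block the active enzymes by binding the catalytic site. TIMP2 also has a role in activation, since at the cell surface it links MMP14 to the MMP2 precursor, which a second MMP14 molecule then cuts. In muscle, MMP2 and MMP9 are known for remodelling the matrix around migrating myoblasts and regenerating fibres.

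Values are log2(intensity + 16), so a probe set with no signal reads 4, and the median probe set reads 4.76. Levels of different probe sets are not comparable, because each binds its target with its own strength. Array medians lay between 10.7 and 11.4 intensity units, and precision is limited by having 3 arrays a group. Of the 8 muscle markers, Myod1, Myog, Des, Myh3, Ttn, Chrna1, Ckm and Acta1, all read above 16 units on every array. The 3 probe sets of Prdm2, the target, were not lower on the knockdown arrays, with log2 fold changes of 0.15 (SE 0.19), 0.07 (SE 0.18) and 0.12 (SE 0.09), and none passed the test in either fit. "Knockdown arrays" thus means arrays labelled PRDM2 knockdown, and each direction given here depends on those labels. The array labelled control replicate 2 stood apart from control replicates 1 and 3. Its log2 differences from knockdown replicate 2 had a median absolute deviation of 0.08 over the 11259 brightest probe sets, against 0.38 and 0.37 from the other control arrays. Likeness by replicate number was also seen in the arrays numbered 3. By the same measure knockdown and control replicates 3 stood at 0.20, and knockdown and control replicates 1 at 0.31. Control replicates 1 and 3 stood at 0.22. Whether control replicate 2 carries the wrong label or shares RNA with knockdown replicate 2 was not tested. Results are therefore given both with and without control replicate 2.

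Among the 10 genes, Timp2 and Timp1 differed most between the groups, in opposite directions, and the difference in both lay between the knockdown arrays and the control replicates 1 and 3. In the fit of all 6 arrays, 5 of the 6 Timp2 probe sets were lower on the knockdown arrays by between 0.53 and 0.74 on the log2 scale, and the single Timp1 probe set was higher by 0.61. None of these passed the threshold. Without control replicate 2, the brightest Timp2 probe set fell by 1.02 (SE 0.13, adjusted p = 0.046 with limma) and was the only 1 of the 24 past the threshold. Of all probe sets, 248 passed in that fit, and in all 248 the left-out array resembled the knockdown arrays more than the remaining controls. Control replicate 2 was singled out for its likeness to knockdown replicate 2, so every adjusted p of that fit depends on this choice. The proteases moved less, with a log2 fold change of -0.26 for Mmp2, 0.28 for Mmp9 and -0.07 for Mmp14 in their brightest probe sets.

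With all 6 arrays, 0 of the 24 probe sets passed an adjusted p of 0.05 (limma, Benjamini-Hochberg over all 45033), against a background of 0% of all probe sets. At an unadjusted p under 0.05 there was 1 of the 24, a Timp2 probe set, against 2.94% of all. In the fit without control replicate 2, 1 of the 24 passed, against 0.551% of all probe sets, and 6 of the 24 had an unadjusted p under 0.05, against 10.2%. The knockdown and control arrays did not overlap in 2 of the 24, both of Timp2, against 7.24% of all probe sets. Leaving out control replicate 2, this held for 10 of the 24, against 26.4%. The median log2 fold change of the 24 was -0.03 with all 6 arrays and -0.01 without control replicate 2, beside 0.00 in both cases over all probe sets.

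**Figure D1:**
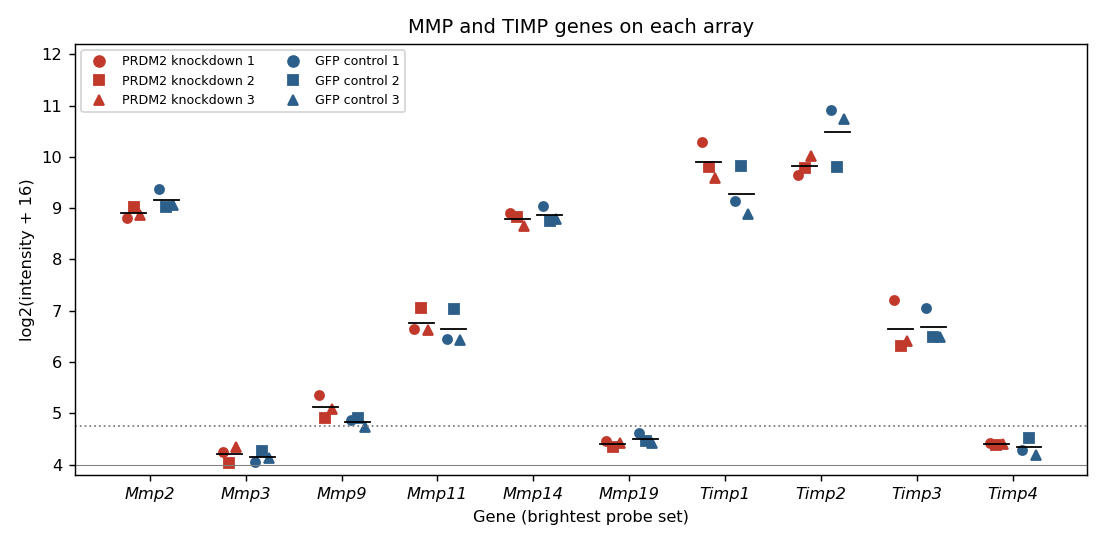
Each point is 1 array's log2(intensity + 16) for the brightest probe set of a gene, with knockdown arrays on the left and control arrays on the right of each gene and a bar at the group mean. The dotted line is the median probe set at 4.76 and the solid line the floor of 4; Timp1 and Timp2 show control replicate 2 (blue square) among the knockdown arrays.

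Of the gelatinases, which cut denatured collagen and basement membrane collagen, Mmp2 was well detected. Its brighter probe set, 1439364_a_at, read 8.81, 9.02 and 8.86 in knockdown replicates 1, 2 and 3, against 9.38, 9.02 and 9.06 in control replicates 1, 2 and 3. Control replicate 1 was the highest array, and the groups met at the arrays numbered 2. The log2 difference was -0.26 (SE 0.12, 95% interval -0.54 to 0.03, adjusted p = 1.00 with limma), and -0.32 (SE 0.13, adjusted p = 0.46) without control replicate 2. The second probe set, 1416136_at, read 8.29, 8.81 and 8.44 on the knockdown arrays, against 8.94, 8.77 and 8.63 on the control arrays. Here knockdown replicate 2 lay inside the control range, and the log2 difference was -0.27 (SE 0.15, 95% interval -0.63 to 0.09).

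Mmp9, the other gelatinase, read close to the median probe set. Probe set 1416298_at gave 5.36, 4.90 and 5.09 on the knockdown arrays, against 4.87, 4.91 and 4.74 on the control arrays. Knockdown replicates 1 and 3 were the highest, and knockdown replicate 2 lay level with control replicate 2. The log2 difference was 0.28 (SE 0.13, 95% interval -0.02 to 0.58) with all 6 arrays and 0.31 (SE 0.14, adjusted p = 0.56) without control replicate 2. In intensity units it exceeded 16 on 2 of the 6 arrays, so the offset sets much of the printed size. The dimmer probe set of Mmp9, 1448291_at, stood on the same side at 0.16 (SE 0.11).

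Mmp14, the membrane-bound protease that activates the MMP2 precursor, showed no difference beyond its spread. Its brightest probe set, 1448383_at, read 8.90, 8.82 and 8.64 on the knockdown arrays, against 9.03, 8.75 and 8.79 on the control arrays. The groups overlapped, and the log2 fold change of -0.07 (SE 0.11) had a 95% interval of -0.33 to 0.19. Probe set 1416572_at read 7.46, 7.41 and 6.75 on the knockdown arrays, against 7.37, 7.42 and 6.87 on the control arrays, and 1440920_at read 6.36, 6.40 and 6.06, against 6.58, 6.29 and 6.07. Both were lowest on the 2 arrays numbered 3, in knockdown and control alike. Their log2 fold changes were -0.01 (SE 0.23) and -0.04 (SE 0.15).

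Mmp11, a stromelysin that is known from stromal cells around tumours and remodelling tissue, followed the replicate number. Its probe set read 6.64, 7.05 and 6.62 on the knockdown arrays, against 6.46, 7.04 and 6.42 on the control arrays. The 2 arrays numbered 2 were the highest in both groups. With all 6 arrays the log2 difference was 0.13 (SE 0.20, 95% interval -0.35 to 0.61), and without control replicate 2 it was 0.33 (SE 0.15, adjusted p = 0.55). The latter fit keeps the high knockdown replicate 2 and drops the equally high control replicate 2. With both arrays numbered 2 left out, the log2 difference was 0.19. Mmp3, a stromelysin that cuts proteoglycans and other MMP precursors, and Mmp19 were not clearly detected. Their 3 probe sets belong to a set of 8 under the median probe set, from 6 genes, which also holds the dimmer Mmp9 probe set, the dimmest of Timp2 and of Timp3 and both of Timp4. None of these 8 exceeded 16 units on any array, their log2 values lay between 4.03 and 4.73, and their log2 fold changes between -0.09 and 0.17.

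Timp2 was lower on all 3 knockdown arrays than on control replicates 1 and 3 in each of its 5 brighter probe sets. The brightest, 1454677_at, read 9.64, 9.79 and 10.02 in knockdown replicates 1, 2 and 3, against 10.91, 9.80 and 10.73 in control replicates 1, 2 and 3. Control replicate 2 read as the knockdown arrays did, and the other control arrays were higher than all of them. Averages were 9.81 ± 0.19 on the knockdown arrays and 10.48 ± 0.60 on the control arrays (SD, n = 3 each). The log2 difference was -0.67 (SE 0.29, 95% interval -1.36 to 0.02, adjusted p = 1.00 with limma). On the 5 arrays without control replicate 2 the same probe set fell by 1.02 (SE 0.13, 95% interval -1.34 to -0.69, adjusted p = 0.046), a knockdown level 0.494 times that of control replicates 1 and 3.

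Probe set 1460287_at of Timp2 read 9.18, 9.21 and 9.39 on the knockdown arrays, against 10.26, 9.21 and 9.90 on the control arrays. Probe set 1433662_s_at, whose suffix marks probes that may also bind related transcripts, read 9.15, 9.14 and 8.96, against 10.21, 9.19 and 9.78. In this one the knockdown arrays lay below every control array, though control replicate 2 stood close above knockdown replicate 1. Probe set 1450040_at read 7.32, 7.39 and 7.03 on the knockdown arrays, against 8.68, 7.37 and 7.89 on the control arrays, and 1420924_at read 6.72, 6.89 and 6.12, against 7.79, 6.94 and 6.89. The last again did not overlap, but by little, since control replicate 3 stood next to knockdown replicate 2.

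Their log2 fold changes with all 6 arrays were -0.53 (SE 0.25), -0.64 (SE 0.24), -0.74 (SE 0.31) and -0.64 (SE 0.30), in the order given. On the same 5 arrays they were -0.82 (SE 0.14, adjusted p = 0.078), -0.92 (SE 0.15, adjusted p = 0.075), -1.04 (SE 0.24, adjusted p = 0.18) and -0.77 (SE 0.32, adjusted p = 0.50), so these 4 did not pass. Control replicate 1 was the highest array in 5 of the 5 brighter probe sets and control replicate 3 the second highest in 4. Control replicate 2 was nearer to the knockdown mean than to that of control replicates 1 and 3 in all 5. Among the 22517 probe sets at or above the median, 0.644% had a lower log2 fold change than 1454677_at with all 6 arrays. The probe sets of 1 gene share the same RNA and are not independent replicates. The sixth Timp2 probe set, 1437081_at, read between 2.5 and 10.8 units and gave 0.17 (SE 0.13), which carries little information on the transcript.

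**Figure D2:**
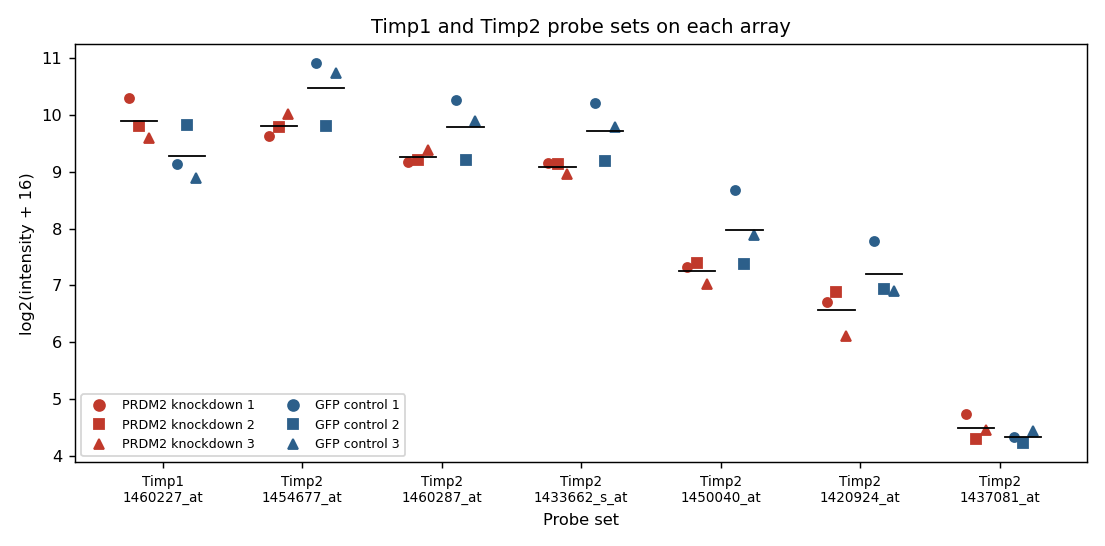
Points are log2(intensity + 16) of single arrays for the Timp1 probe set and the 6 Timp2 probe sets, knockdown left of control, with bars at the group means and marker shapes for the replicate number. In the 5 brighter Timp2 probe sets control replicate 1 (blue circle) is the highest array in each, and control replicate 3 (blue triangle) is second highest in 4. Control replicate 2 (blue square) lies nearer to the knockdown mean than to that of control replicates 1 and 3 in all 5.

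Timp1, a secreted inhibitor that is known to bind the MMP9 precursor, stood on the opposite side. Its only probe set, 1460227_at, read 10.29, 9.80 and 9.59 in knockdown replicates 1, 2 and 3, against 9.14, 9.82 and 8.89 in control replicates 1, 2 and 3. Control replicate 2 lay inside the knockdown range, and control replicates 1 and 3 were below all 3 knockdown arrays. The means were 9.89 ± 0.36 on the knockdown arrays and 9.28 ± 0.48 on the control arrays (SD, n = 3 each). The log2 difference was 0.61 (SE 0.28, 95% interval -0.05 to 1.27, adjusted p = 1.00 with limma), and 1.08% of the probe sets at or above the median had a higher one. Without control replicate 2 it was 0.88 (SE 0.21, 95% interval 0.36 to 1.40, adjusted p = 0.20), which did not pass.

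Timp3, which stays bound to the matrix and also inhibits several ADAM proteases, varied between arrays but not with the group. Probe set 1449335_at read 7.21, 6.32 and 6.41 on the knockdown arrays, against 7.05, 6.49 and 6.50 on the control arrays. Probe set 1419089_at read 6.28, 5.61 and 5.45, against 6.29, 5.65 and 5.66. In both, the 2 arrays numbered 1 were the highest, whichever shRNA the cells carried. The log2 fold changes were -0.03 (SE 0.27, 95% interval -0.68 to 0.61) and -0.09 (SE 0.26, 95% interval -0.72 to 0.54). Another probe set, 1449334_at, read 4.99, 5.01 and 4.62 on the knockdown arrays, against 5.03, 5.05 and 4.61 on the control arrays, at -0.02 (SE 0.16). Timp4, an inhibitor known from heart and skeletal muscle, reached at most 6.7 units in its 2 probe sets, with log2 fold changes of 0.07 (SE 0.10) and 0.06 (SE 0.08).

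**Figure D3:**
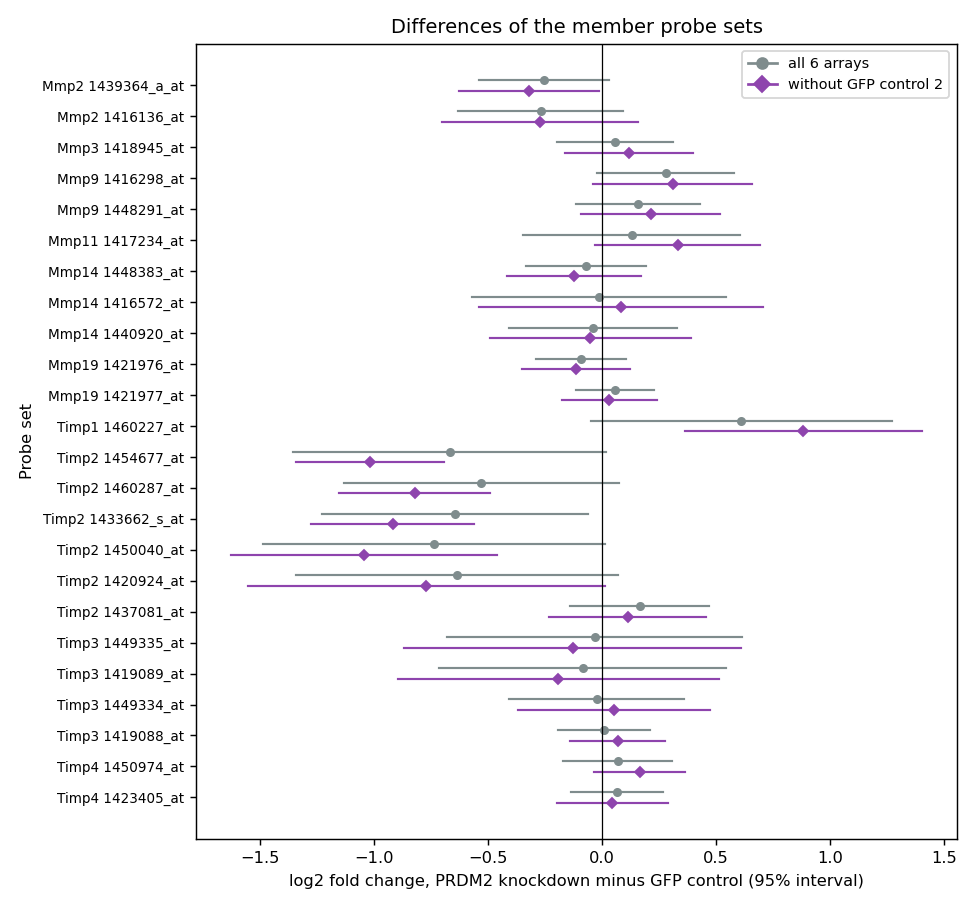
Log2 fold changes of the 24 probe sets, knockdown minus control, with 95% intervals from limma, for all 6 arrays (grey circles) and without control replicate 2 (purple diamonds). The Timp1 interval and 4 of the 5 brighter Timp2 intervals exclude 0 without control replicate 2, as does that of Mmp2 1439364_a_at, while the intervals of Mmp14 and Timp3 span 0 in both fits.

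Differences between arrays of the same number showed where the contrast of Timp1 and Timp2 lay. For Timp2 probe set 1454677_at, knockdown minus control was -1.28 for the arrays numbered 1, -0.01 for those numbered 2 and -0.71 for those numbered 3. Timp1 gave 1.15, -0.02 and 0.69 for the numbers 1, 2 and 3. For Mmp2 probe set 1439364_a_at the differences were -0.57, 0.01 and -0.20. The 2 arrays numbered 2 were thus nearly alike in these genes, whereas the other 2 pairs differed in the same direction. With both arrays numbered 2 left out and the replicate number as a block, 5 of the 24 probe sets passed, against 1.46% of all probe sets. They were Timp1, at 0.94 (SE 0.13, adjusted p = 0.041), and the Timp2 probe sets 1454677_at, 1433662_s_at, 1450040_at and 1420924_at, at -1.01 (SE 0.15, adjusted p = 0.045), -0.95 (SE 0.11, adjusted p = 0.022), -1.12 (SE 0.14, adjusted p = 0.031) and -0.94 (SE 0.11, adjusted p = 0.027). That comparison holds 2 arrays a group, so the error of each probe set rests largely on the spread of all probe sets. It leaves out the pair in which Timp1 and Timp2 hardly differed. The calls come from 2 genes, and the Timp2 probe sets share the same RNA. Without the block 0 of the 24 passed on the same 4 arrays, against 0.131% of all probe sets, with 9 of the 24 at an unadjusted p under 0.05, against 9.92%. All 6 arrays with the block gave 0 of the 24, against 0% of all, and 7 at an unadjusted p under 0.05, against 7.84%.

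**Figure D4:**
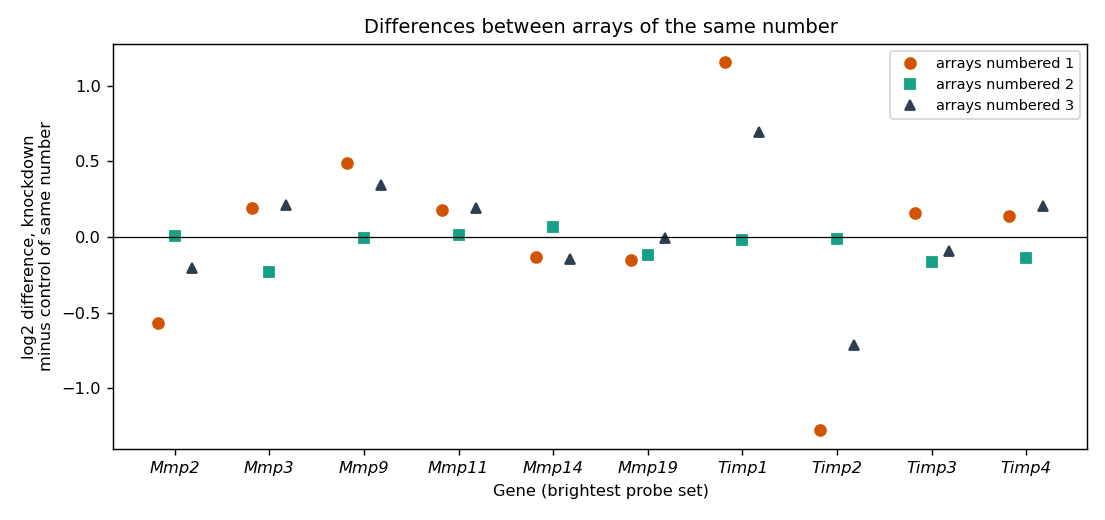
Each point is the log2 value of a knockdown array minus that of the control array of the same number, for the brightest probe set of each gene. Arrays numbered 2 (green squares) lie close to 0 for Timp1 and Timp2, at -0.02 and -0.01, where the other 2 pairs lie far from 0 on the same side.

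The promoters of Timp1 and Timp2 are shown because these were the 2 genes with the largest differences. They come from RefSeq, build GRCm38.p6, and run from 250 bases before to 50 bases after the annotated start, read along the gene. Capitals mark GGGCGG, the GC box bound by SP factors, or its reverse complement. Timp1 lies at chrX:20869916-20870215 on the plus strand and Timp2 at chr11:118355362-118355661 on the minus strand.
Timp1: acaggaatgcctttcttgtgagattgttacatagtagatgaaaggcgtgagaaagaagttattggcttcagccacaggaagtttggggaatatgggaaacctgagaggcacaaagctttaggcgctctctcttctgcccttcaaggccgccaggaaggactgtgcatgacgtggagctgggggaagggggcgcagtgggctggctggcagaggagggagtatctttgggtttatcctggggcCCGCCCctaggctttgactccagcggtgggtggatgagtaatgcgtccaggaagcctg
Timp2: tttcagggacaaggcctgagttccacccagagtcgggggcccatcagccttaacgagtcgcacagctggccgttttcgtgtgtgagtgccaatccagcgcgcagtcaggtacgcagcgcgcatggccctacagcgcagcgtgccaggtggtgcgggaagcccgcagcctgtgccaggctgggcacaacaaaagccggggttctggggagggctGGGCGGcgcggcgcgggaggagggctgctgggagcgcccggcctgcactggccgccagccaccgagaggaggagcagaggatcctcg

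Both strands were searched for 3 motifs, TGANTCA (AP-1), TATAAA (the TATA box) and GGGCGG, which do not overlap each other in these windows. The promoters of Timp1 and Timp2 each held 1 GGGCGG and neither of the other motifs, and 35.7% of 32851 promoters of this length held GGGCGG. Of the 10 genes, 7 had a promoter in the table, and 5 of these 7 held GGGCGG. Only that of Mmp3 held TGANTCA and TATAAA, found in 7.81% and 13.6% of all promoters. A match describes the letters in the window and not a site in use. Only exact matches were searched, so a variant of a motif would be missed, and a promoter without a match may still hold one.

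By a fixed measure of likeness, the Pearson correlation over the 6 arrays among 934 other genes spanning at least 1 log2 unit, the genes most like Timp2 were Aqp1, Ampd3 and Cmtm3. Aqp1, a water channel, read 5.32, 5.37 and 5.60 on the knockdown arrays, against 6.50, 5.42 and 6.33 on the control arrays, with a correlation of 0.998. Ampd3, an AMP deaminase, and Cmtm3 followed at 0.997. Most like Timp1 were Smox, a spermine oxidase, at 0.997, Ltbp2, a microfibril-associated protein, at 0.995, and Ccn2, a matricellular growth factor, at 0.995. Ccn2 read 10.72, 9.59 and 9.05 on the knockdown arrays, against 8.34, 9.59 and 7.47 on the control arrays. All the points share the same 6 arrays, of which those numbered 2 are nearly alike.

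The other genes of the pathway were described from 5 lists with 99 measured genes, each by its brightest probe set. With all 6 arrays 0 of the 99 passed (limma), against 0% of 18192 genes, with 9 at an unadjusted p under 0.05, against 3.71% of all genes. Without control replicate 2, 7 rose and 1 fell, against 0.478% and 0.412% of all genes, and 36 had an unadjusted p under 0.05, against 14%. The median log2 fold change of the 99 was 0.04 with all 6 arrays, beside 0.00 over all genes.

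Of 17 other MMP genes 12 were measured, 4 of them at or above the median probe set, and 0 passed in either fit. Mmp23 averaged 5.18 on the knockdown arrays and 5.64 on the control arrays, at -0.46 (SE 0.25), with control replicate 1 the highest array at 6.15. Without control replicate 2 it was at -0.68 (SE 0.21). Mmp8, a neutrophil collagenase, and Mmp10, a stromelysin, stood at -0.16 (SE 0.08) and 0.12 (SE 0.08) with all 6 arrays and at -0.23 (SE 0.08) and 0.11 (SE 0.10) without it, both dim. Among 24 measured ADAM and ADAMTS genes 0 passed in either fit. Adam12, a protease of fusing myoblasts, stood at 0.84 (SE 0.23) with all 6 arrays and at 1.06 (SE 0.19, adjusted p = 0.096) without control replicate 2. Adam23 stood at 0.25 (SE 0.15) and 0.43 (SE 0.08) in these fits, and Adamts19 at -0.19 (SE 0.10) and -0.10 (SE 0.08), both dim on all arrays.

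Of 15 measured genes that activate, bind, inhibit or clear MMPs, 2 rose and 0 fell without control replicate 2. Lrp1, the endocytic receptor that clears MMPs and TIMPs, rose by 0.67 (SE 0.09, adjusted p = 0.045), reading 8.74, 8.64 and 8.75 on the knockdown arrays, against 7.99, 8.57 and 8.08 on the control arrays. Thbs1, a matricellular protein that binds MMP precursors, rose by 1.19 (SE 0.12, adjusted p = 0.024). With all 6 arrays they stood at 0.50 (SE 0.16) and 0.74 (SE 0.36), and Thbs2 at -0.35 (SE 0.21), or -0.31 (SE 0.24) without control replicate 2. Of 21 measured transcription factors and cytokines known to induce MMP or TIMP genes 0 passed in either fit. Egr1, an immediate early factor, stood at 0.79 (SE 0.27) with all 6 arrays and 1.08 (SE 0.18, adjusted p = 0.084) without control replicate 2. In the same order Fos, a subunit of AP-1, stood at 0.31 (SE 0.15) and 0.34 (SE 0.17), and the NF-kB factor Rela at -0.42 (SE 0.14) and -0.56 (SE 0.10).

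Among 27 measured matrix proteins that MMPs cut, 5 rose and 1 fell without control replicate 2. The 5 were Col1a1, a chain of type I collagen, by 2.81 (SE 0.25, adjusted p = 0.018), the basement membrane protein Nid2 by 1.79 (SE 0.15, adjusted p = 0.013), and the proteoglycans Bgn by 1.55 (SE 0.12, adjusted p = 0.011) and Vcan by 0.86 (SE 0.10, adjusted p = 0.036), and the laminin receptor Dag1 by 0.70 (SE 0.09, adjusted p = 0.048). The proteoglycan Dcn fell by 2.73 (SE 0.18, adjusted p = 0.010). Knockdown replicate 2 and control replicate 2 were close in these genes, at 9.75 and 9.74 for Col1a1 and 8.62 and 8.71 for Nid2. For Bgn they read 11.38 and 11.31, and for Dcn 4.90 and 5.07. With all 6 arrays none of these genes passed. Col1a1 then stood at 1.83 (SE 0.79), Nid2 at 1.13 (SE 0.52) and Bgn at 0.99 (SE 0.44). Vcan stood at 0.52 (SE 0.27), Dag1 at 0.46 (SE 0.20) and Dcn at -1.90 (SE 0.67). Col4a1 and Col4a2, the basement membrane collagen chains, stood at 0.72 (SE 0.23) and 0.49 (SE 0.18) with all 6 arrays. Without control replicate 2 they stood at 0.98 (SE 0.15) and 0.66 (SE 0.15), where neither passed.

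Col1a1 and Dcn are also fibroblast markers. Of the 6 markers of that list, 2 read above 16 units on every array, and Thy1 and Lum read at most 16 on all. Their summed intensity was 3822, 3939 and 2686 units in knockdown replicates 1, 2 and 3, against 2458, 4080 and 1899 units in control replicates 1, 2 and 3. In this sum the groups overlapped through control replicate 2 alone, and without it every knockdown array lay above both control arrays. The sum weighs the brightest markers most, and the markers differed in direction. With all 6 arrays, 3 of the 6 stood on the higher side, while Dcn stood at -1.90 (SE 0.67) and Lum at -0.21 (SE 0.08). The part of these markers in the Timp1 and Timp2 differences was not tested. All 5 endothelial and all 3 measured adipocyte markers read at most 16 units on every array. Of 6 macrophage markers 4 did so, including Cd68 and Ptprc. Adgre1 and Csf1r read higher, Csf1r at 5.64, 6.68 and 7.32 on the knockdown arrays, against 6.53, 6.31 and 7.16 on the control arrays. The summed intensity of this list ranged from 88.8 to 183 units on the knockdown arrays and from 95.8 to 163 on the control arrays.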

How the data were processed

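The authors deposited 1 linear intensity for each probe set and array. GCOS and PLIER are named, per the submitters' processing notes, with no version, role or order. How arrays were scaled to each other is not stated there. Labelled cRNA was made from 8 ug of Trizol-extracted RNA, per the labels' protocols. Of 45101 probe sets, 64 controls and 4 of Gngt1, which held that gene's Entrez number in 1 column, were left out. Gene names came from the platform annotation: 34941 probe sets name 1 gene, 932 several and 9160 none. By Entrez number 34737 matched a table of GRCm38.p6, which changed 0 symbols. The table held 0 further sample columns.

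Intensities were quantile normalized, since upper quartiles differed by 0.15 on the log2 scale, and taken as log2(intensity + 16). All 45033 probe sets were fitted in 1 linear model, without a block, using limma 3.58.1 (R 4.3.3), with two-sided moderated tests. Adjustment was by Benjamini-Hochberg over all of them, at a threshold of 0.05. The fit was tested on simulated data. Fits without an array were normalized anew. For lists, a gene was represented by its brightest probe set, keeping the p-values adjusted over all probe sets.

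Whether the replicate numbers pair the arrays was checked. After subtracting group means, arrays of the same number correlated at 0.32, 0.60 and 0.62 over all probe sets, above the 0.1 required of each, so the numbers were read as pairs. This treatment rests on the data, not on the labels. The main fit held no block, so its SEs and intervals include the variation that arrays of the same number share. With the block and all 6 arrays, log2 fold changes were unchanged. The SE was then 0.07 instead of 0.23 for Mmp14 1416572_at and 0.07 instead of 0.20 for Mmp11. It was 0.09 instead of 0.27 for Timp3 1449335_at and 0.22 instead of 0.29 for Timp2 1454677_at. For Mmp3 it was 0.11 in both fits.

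Genes were named by rule: every member, with array values for probe sets at or above the median or called, and, of each list, genes called in either fit and the 3 of smallest p. The 10 genes, the lists and the rules were chosen with earlier results of these data known. Alternatives were other scalings and offsets, a filter on dim probe sets, 1 value a gene, other eBayes settings, array weights, the replicate block and leaving out arrays.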

Additional observations from a re-analysis of the deposited data

How the results depend on the processing

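Over 18 alternatives, 13 of the 24 probe sets kept their direction in each one run, among them Timp1, all 6 of Timp2 and both of Mmp2, Mmp9 and Mmp19. A kept direction is that of a probe set and not of a gene. Timp2 1437081_at, at 0.17, lay opposite to the other 5 of Timp2. Both Mmp19 probe sets lay opposite to each other, at -0.09 and 0.06. Timp2 1437081_at, both of Mmp19 and Mmp9 1448291_at exceeded 16 units on no array. Some alternatives could not reverse a direction, because they leave each log2 fold change as it was. These were the other eBayes settings, the block with all 6 arrays, the filter on dim probe sets and the brightest probe set of a gene. With the replicate number as a block and all 6 arrays, 0 of the 24 and 0 of all probe sets passed, with 7 of the 24 at an unadjusted p under 0.05, so the block changed no call there. Leaving out 1 array, calls ranged from 0 to 1 of the 24, from 0 to 248 of all probe sets and from 0 to 8 of the 99 pathway genes, the upper values all without control replicate 2. Without both arrays numbered 2, 59 of all probe sets and 3 pathway genes passed without a block, and 5 of the 24, 659 of all and 16 pathway genes with it. No other alternative gave a call. Leaving out 1 array, Timp1 ranged from 0.41 (without knockdown replicate 1) to 0.88, and Timp2 probe set 1454677_at from -1.02 to -0.45 (without control replicate 1). The other 4 brighter Timp2 probe sets were likewise smallest without control replicate 1, at -0.29 (1460287_at), -0.40 (1433662_s_at), -0.38 (1450040_at) and -0.34 (1420924_at). Mmp2 ranged from -0.32 to -0.14 (1439364_a_at, smallest without control replicate 1) and from -0.42 (without knockdown replicate 2) to -0.16 (1416136_at, without knockdown replicate 1). Mmp9 ranged from 0.16 (without knockdown replicate 1) to 0.38 (1416298_at) and from 0.058 (without control replicate 3) to 0.21 (1448291_at). Leaving out 1 array, Mmp14 ranged from -0.19 to 0.22 (1416572_at), from -0.16 to 0.092 (1440920_at) and from -0.13 to 0.018 (1448383_at). Timp3 ranged from -0.31 to 0.15 (1449335_at), from -0.33 to 0.13 (1419089_at), from -0.17 to 0.10 (1449334_at) and from -0.037 to 0.068 (1419088_at). Mmp11 ranged from -0.014 to 0.33, Mmp3 from -0.011 to 0.14 and Timp4 1450974_at from -0.0061 to 0.16. With array weights, Mmp14 1416572_at turned to 0.031 and Timp3 1449334_at to 0.035. Without both arrays numbered 2, with or without a replicate block, Timp3 1449335_at turned to 0.033 and Timp4 1423405_at to -0.01. The cause of these reversals was not tested.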
